A study of Mus musculus with 100 samples.

Results

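RNA sequencing was used to follow gene expression in the prefrontal cortex of wild-type (WT) mice between postnatal day 22 (P22), around weaning, and adulthood at 3 months. The comparison held the WT animals of sequencing batch 1, namely the P22 animals labelled P22_WT_443, P22_WT_445 and P22_WT_447 and the adults B58, B76 and B78, which were 6 of the 53 animals and 12 of the 100 libraries of the series. Each group had 1 male and 2 females, and the 2 libraries of an animal were summed. The series was built around a frameshift deletion in Myt1l, which encodes a zinc finger transcription factor of neurons, made by genome editing of zygotes. The animals used here carried the WT genotype of that line on the strain labelled C57BL/6J, whereas the paper's methods name C57BL/6N. Heterozygous mutant (HET) animals at P22 and adult age, 3 for each age in batch 1 and 3 for each age in batch 3, and WT animals of batch 3 at P22 (3) and at birth (P0, 2 females) were set beside them. The labels name no treatment of these animals. The labels name the sequencing batch alone, so that age and any date of dissection or RNA extraction cannot be told apart.

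Between weaning and adulthood the rodent cortex changes little in neuron number but much in state. Oligodendrocyte precursors divide more slowly or become myelinating cells, axons are wrapped in myelin, synapses are pruned, receptors and ion channels change their subunits, and perineuronal nets, lattices of hyaluronan and proteoglycans, form around fast-spiking interneurons. Bulk tissue gives the sum over all of these cells.

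Each animal had 41.9 to 49.8 Mreads (1 Mread is 1000000 reads) counted in genes. The 2 libraries of an animal differed by 1.2 to 1.23 chi-square per degree of freedom over genes, against 5.17 to 10.82 between libraries of different animals of a group, and were counted as 1 sample. The recorded sex was matched by sex-linked transcripts in 6 of 6 animals. The labelled tissue was checked with Slc17a7, which was high at both ages. Slc17a7, the vesicular glutamate transporter of cortical projection neurons, was at 1642 ± 156 CPM (counts per 1000000; SD, n = 3) at P22 and 1557 ± 91.5 CPM in adults. Genes that mark striatum, thalamus, olfactory bulb, choroid plexus and meninges were also detected and moved with age, as given with each of them. P22 WT animals of batch 3 differed from those of batch 1 in 7944 of 18426 genes (43.1%), 3902 (21.2%) higher and 4042 (21.9%) lower, a comparison chosen after seeing the data, and their levels are printed beside some of the results they touch.

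Of 18899 genes tested, 4558 (24.1%) were higher and 4612 (24.4%) were lower in adults at a false discovery rate (FDR) under 0.05, which is 48.5% of all genes. The median absolute log2 fold change of these genes was 0.52, and 1000 genes (5.29%) were at least 2-fold higher and 1078 (5.7%) at least 2-fold lower. The 3 adult and the 3 P22 animals did not overlap in 11382 genes (60.2%). With 3 animals against 3 an exact two-sided permutation test of 1 gene cannot go below p = 0.1, and all FDR values come from edgeR's quasi-likelihood fit across all genes. Because so many genes were called, the gene lists are read by direction and size against those background shares.

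**Figure D1:**
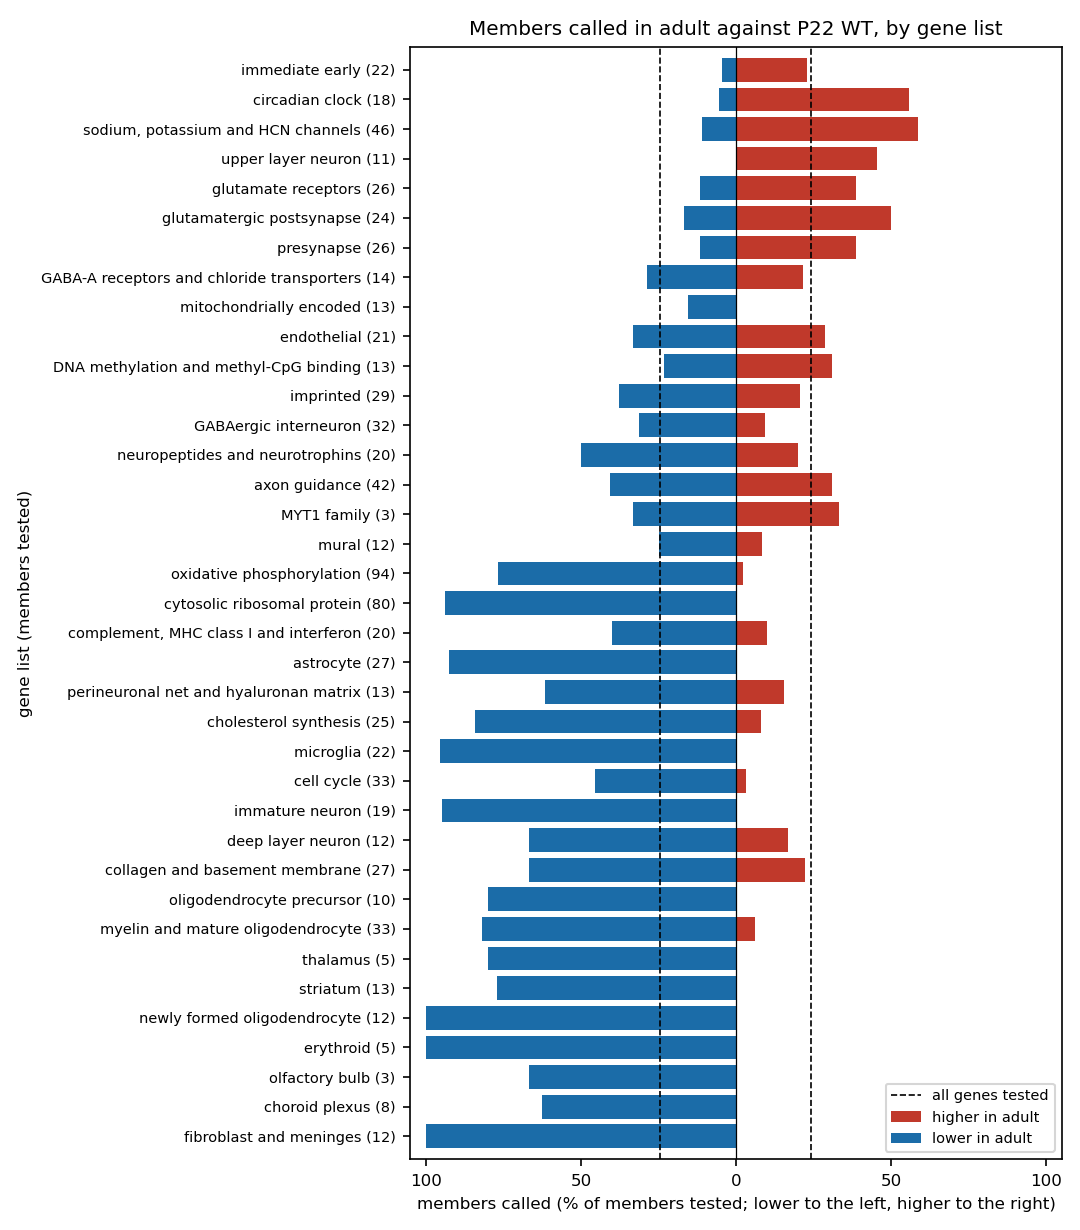
Share of the tested members of each gene list that were called lower (bars to the left) or higher (bars to the right) in adult against P22 WT cortex, in percent, with the number tested after the name and dashed lines for all genes tested (24.4% lower, 24.1% higher). Oligodendrocyte, immature neuron, astrocyte, microglia, ribosomal, meningeal and erythroid lists lie almost wholly to the left, whereas ion channels and the circadian clock lie mainly to the right.

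The largest rises, among genes averaging 1 or more in log2 CPM, were in genes of varied function. Plin4, which coats lipid droplets, was at 0.508, 0.432 and 0.33 CPM at P22 and at 10.6, 2.27 and 2.35 CPM in adults, a log2 fold change of 3.46 ± 0.64 (SE; FDR = 0.0024), and animal B58 stood well above the other adults. The log2 fold change of Plin4 was 2.41 without B58, and 4.09 or 4.08 without P22_WT_443 or B78. Alox12b, a lipoxygenase, was at 1.48, 1.58 and 1.93 CPM and then at 10.3, 7.83 and 11.8 CPM (log2 fold change 2.58 ± 0.18, FDR = 2.8e-05). Espn, which bundles actin filaments, was at 1.12, 0.815 and 0.825 CPM at P22 and 4.46, 3.63 and 5.24 CPM in adults (2.27 ± 0.16, FDR = 3e-05). Lack of overlap between the groups was part of the rule that chose these genes. Nxf7, Rskr, Mei1, Fosb, Adam33, Plekhg4 and Xdh completed the 10 largest rises, with log2 fold changes between 2.23 (Xdh) and 2.80 (Nxf7).

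The largest falls, again among genes averaging 1 or more in log2 CPM, were led by Nts, the neuropeptide neurotensin. Nts was at 3.03, 5.54 and 6.62 CPM at P22 and 0.292, 0.113 and 0.194 CPM in adults (log2 fold change -4.62 ± 0.29, FDR = 2e-05). In P22 WT animals of batch 3 Nts was at only 0.123 to 0.423 CPM, within or near the adult range. Other leading falls were in matrix and transport genes. Col3a1, a fibrillar collagen, was at 20, 17.6 and 19.3 CPM at P22 and 0.563, 1.41 and 2.4 CPM in adults (-3.77 ± 0.29, FDR = 3.8e-05), and Thbs1, the secreted glycoprotein thrombospondin, was at 15.2, 8.32 and 10.1 CPM and then at 0.48, 0.544 and 1.5 CPM (-3.81 ± 0.19, FDR = 1e-05). Nxph4, a neurexin ligand of the deepest cortical layer, fell from 8.04, 6.12 and 6.74 CPM to 0.834, 0.59 and 0.679 CPM (-3.29 ± 0.17, FDR = 1.1e-05). In P22 WT animals of batch 3 Nxph4 was at 1.605 to 3.043 CPM, between the adults and the P22 animals of batch 1. Lbp, Slc26a7, Slc47a1, Cdh1, Bmp5 and Ndst4 made up the rest of the 10 largest falls, with log2 fold changes from -4.07 (Lbp) to -3.32 (Ndst4).

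Oligodendrocyte genes were lower in adults at every stage of the lineage. In bulk RNA, fewer cells of a type and less RNA per cell cannot be told apart. The part of neighbouring tissue in these levels was not tested. Of 10 precursor genes, 8 were lower and 0 higher (median log2 fold change -0.92). Pdgfra, the growth factor receptor that defines the precursors, was at 68.6, 64.1 and 65.7 CPM at P22 and at 38.6, 41.9 and 36.5 CPM in adults (-0.76 ± 0.07, FDR = 6e-05). All 12 genes of newly formed oligodendrocytes were lower, with a median of -1.21 and a summed level of 528 to 613 CPM at P22 against 287.1 to 305.6 CPM in adults. Bmp4, a secreted signal of these cells, fell 5.52-fold, from 11.2, 9.16 and 11.2 CPM to 1.71, 1.86 and 2.16 CPM. Enpp6, a choline phosphodiesterase that marks oligodendrocytes at the onset of differentiation, fell 5.4-fold, from 22.4, 18.1 and 17.7 CPM to 2.71, 4.79 and 3.23 CPM. Gpr17, a receptor that holds precursors before maturation, was at 152, 136 and 151 CPM and then at 43.5, 55.7 and 45.9 CPM. P22 and adult animals were apart in all 12 genes.

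Of 33 myelin and mature oligodendrocyte genes, 27 were lower and 2 higher in adults, with a median of -1.01. Cldn11 (3:31149920-31164324), the tight junction protein of myelin, was at 270, 210 and 232 CPM at P22 and at 59, 59.6 and 56.7 CPM in adults, a 4.04-fold fall (log2 fold change -2.02 ± 0.08, FDR = 6.2e-06). Mog, at the outer myelin surface, went from 95.7, 79.7 and 87.9 CPM to 27.6, 29.3 and 27.6 CPM. Ugt8a, the enzyme of the myelin lipid galactosylceramide, fell by 1.92 on the log2 scale (FDR = 7.5e-06). The 2 exceptions, named after their values were seen, were Hapln2, a link protein at nodes of Ranvier, at 4.83, 4.96 and 6.08 CPM and then 13, 9.62 and 11.5 CPM (log2 fold change 1.11, FDR = 0.00037), and Qdpr, a pteridine reductase, at 101, 95.7 and 99.9 CPM and then 115, 120 and 121 CPM (0.26, FDR = 0.0021). In HET animals of batch 3 Hapln2 was at 5.079 to 6.609 CPM at P22 and 5.209 to 6.241 CPM in adults. The summed level of the list was 9737 to 12350 CPM at P22 and 3751 to 3806 CPM in adults. P22 WT animals of batch 3 lay between them, at 4940 to 7098 CPM, and had Cldn11 at 96.1 to 143 CPM. There 29 of 33 members were called lower than in P22 WT animals of batch 1, and 0 higher.

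Cholesterol, of which myelin holds much, is made in the brain itself. Of 25 genes of the pathway, 21 were lower and 2 higher in adults (median -0.52), and the groups were apart in 24. Hmgcs1, the HMG-CoA synthase at the start of the pathway, was at 432, 436 and 433 CPM at P22 and 212, 250 and 197 CPM in adults (log2 fold change -0.98 ± 0.07, FDR = 3.7e-05). Sqle, the squalene epoxidase, was at 96, 101 and 101 CPM and then at 49.3, 59.1 and 48.3 CPM, and Dhcr7, the enzyme of the last step, at 47.5, 53.6 and 47.3 CPM and then at 29, 28.5 and 27.4 CPM. The 2 genes that rose, named after their values were seen, were the pathway's regulators Srebf2 (0.15, FDR = 0.032) and Scap (0.26, FDR = 0.005). The number higher was 1 without P22_WT_443, P22_WT_445, P22_WT_447, adult B58 or adult B78. It was 1 in HET animals of batch 1 and 0 in those of batch 3. SREBP-2, the product of Srebf2, binds sterol regulatory elements. The letters CACCCCAC, an exact match to such an element, were found on either strand in the 250 bases before the start of 2 of the 18 list genes with a RefSeq promoter (11.1%), against 2.98% of 27025 genes. Both are shown because both fell (GRCm38.p6, 5′ to 3′ on the gene's strand, the match in capitals), Hmgcs1 at chr13:119690101-119690350 on the plus strand and Acat2, an acetyl-CoA acetyltransferase named after its values were seen (-0.68, FDR = 8.8e-05), at chr17:12960726-12960975 on the minus strand. The match alone does not show that the factor binds there.
Hmgcs1: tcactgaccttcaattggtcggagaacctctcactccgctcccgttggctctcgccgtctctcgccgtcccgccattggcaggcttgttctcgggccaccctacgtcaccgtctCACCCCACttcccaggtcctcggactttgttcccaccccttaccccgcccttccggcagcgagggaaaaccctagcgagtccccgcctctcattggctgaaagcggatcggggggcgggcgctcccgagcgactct
Acat2: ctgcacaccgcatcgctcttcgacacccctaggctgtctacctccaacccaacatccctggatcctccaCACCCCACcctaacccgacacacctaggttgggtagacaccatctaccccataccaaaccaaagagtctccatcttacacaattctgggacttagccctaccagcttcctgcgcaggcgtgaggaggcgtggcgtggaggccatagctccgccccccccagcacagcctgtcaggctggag

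Genes of immature neurons were still well expressed at P22 and lower in adults. Of 19 such genes 18 were lower and 0 higher, the groups were apart in all 19, and the median was -0.66. Marcksl1 (4:129513581-129515985), an actin-regulating substrate of protein kinase C, was at 174, 162 and 147 CPM at P22 and 31.8, 35.4 and 31.8 CPM in adults, a 4.87-fold fall (log2 fold change -2.28 ± 0.08, FDR = 6.2e-06). Cd24a, a surface protein of migrating neuroblasts, was at 17.3, 15.3 and 11.6 CPM and then at 3.04, 3.13 and 3.23 CPM. Tubb2b, a tubulin of migrating neurons, went from 222, 211 and 214 CPM to 90.1, 105 and 91.6 CPM, and Dpysl3, a growth cone protein, from 79.1, 66.6 and 71.3 CPM to 28.4, 31.6 and 30.9 CPM. Dcx, the microtubule protein most used as a marker of young neurons and named after its values were seen, was the 1 member not called (-0.24, FDR = 0.051).

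Axon guidance genes moved in both directions, 13 higher and 17 lower of 42 (median -0.19). Nrp2, a semaphorin receptor, was at 41.2, 37.4 and 45 CPM and then at 16.6, 16.5 and 14.1 CPM (-1.39 ± 0.09, FDR = 2.2e-05). Unc5a, a netrin receptor, rose from 75.3, 75.3 and 68 CPM to 127, 142 and 128 CPM (0.86 ± 0.07, FDR = 4e-05). The ligands Sema6a (-1.14, FDR = 8.6e-05) and Efnb3 (-0.75, FDR = 0.00017) were lower. In P22 WT animals of batch 3 Nrp2 was at only 17.7 to 20.7 CPM. In HET animals of batch 3 Nrp2 was at 18.74 to 21.25 CPM at P22 and 17.66 to 23.78 CPM in adults.

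Sodium, potassium and HCN channel genes rose more often than the background, with 27 higher and 5 lower of 46 and a median of 0.31. Kcnt1, the sodium-activated potassium channel Slack, was at 90.1, 98.7 and 86.9 CPM at P22 and 194, 189 and 195 CPM in adults (log2 fold change 1.07 ± 0.06, FDR = 1.3e-05), but its level in P22 WT animals of batch 3 was already 150 to 171 CPM. Scn8a, the mature sodium channel of axon initial segments and nodes, was at 270, 285 and 263 CPM and then at 424, 419 and 441 CPM (0.65 ± 0.05, FDR = 4.6e-05). Scn3a, its embryonic relative, was at 33.8, 34.2 and 31 CPM and at 31.7, 36.2 and 28.5 CPM, with overlapping groups (-0.04 ± 0.09, FDR = 0.71). Per kb of exon the ratio of Scn8a to Scn3a was 6.66 ± 0.2 at P22 and 10.9 ± 1.56 in adults (SD, n = 3), and 8.9 to 9.36 in P22 WT animals of batch 3.

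Of 26 glutamate receptor and auxiliary subunit genes, 10 were higher and 3 lower (median 0.19), close to the background of 48.5% in all, and without P22_WT_447 the number higher was 6. The NMDA receptor subunit Grin2a, which replaces Grin2b at maturing synapses, was at 123, 128 and 117 CPM at P22 and at 193, 200 and 182 CPM in adults (log2 fold change 0.64 ± 0.06, FDR = 6.2e-05). Grin2b did not fall but was higher, at 384, 355 and 331 CPM and then 435.7, 454.4 and 388.7 CPM (0.26 ± 0.08, FDR = 0.022), a call lost without P22_WT_445 or P22_WT_447 or adult B58 or B76 (FDR = 0.093, 0.085, 0.073 and 0.079). The ratio of Grin2a to Grin2b per kb was 0.479 ± 0.0289 at P22 and 0.624 ± 0.0214 in adults, with each adult (0.611 to 0.648) above each P22 animal (0.446 to 0.499). Cacng2, the AMPA receptor partner stargazin, rose from 84.8, 91.5 and 90.1 CPM to 133, 146 and 139 CPM, Gria2, the subunit that makes AMPA receptors impermeable to calcium, rose by 0.41 on the log2 scale (FDR = 0.0004), and the metabotropic receptor Grm3 fell by 0.50 (FDR = 0.00015). In HET animals of batch 3 Grm3 did not fall, at 63.2 to 71.96 CPM at P22 and 71.13 to 80.49 CPM in adults.

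Among 14 tested genes of GABA-A receptors and chloride transporters, 3 were higher and 4 lower (median 0.03), and 1 was higher without adult B58. Slc12a5 encodes KCC2, which exports chloride from mature neurons, and Slc12a2 encodes the importer NKCC1. Slc12a5 rose from 516, 544 and 500 CPM to 810, 754 and 812 CPM (log2 fold change 0.61 ± 0.06, FDR = 8.4e-05), and Slc12a2 fell from 59.3, 55.7 and 60 CPM to 43.5, 44 and 47.3 CPM (-0.38 ± 0.05, FDR = 0.00071). Their ratio per kb was 13.1 ± 1.08 at P22 and 25.8 ± 1.24 in adults. P22 WT animals of batch 3 had ratios of 23.1 to 26.5, close to the adults of batch 1. Gabra5, a subunit of extrasynaptic receptors, was at 55.3, 53.7 and 46.1 CPM and then 41.5, 41.9 and 36.9 CPM (-0.37 ± 0.08, FDR = 0.007).

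Synaptic scaffolds and release proteins changed modestly. Of 26 presynaptic genes, 10 were higher and 3 lower (median 0.08). Snap25, a core protein of vesicle fusion, rose from 2512, 2542 and 2644 CPM to 4334, 3954 and 4375 CPM (0.72 ± 0.06, FDR = 5.4e-05), the active zone scaffolds Pclo (0.60, FDR = 9.4e-05) and Bsn (0.56, FDR = 0.00011) rose, and Rims1, another active zone protein, fell by 0.48 (FDR = 0.00024). Of 24 glutamatergic postsynaptic genes, 12 were higher and 4 lower (median 0.15). Baiap2, a regulator of actin in spines, went from 270, 265 and 236 CPM to 389, 414 and 389 CPM, and the scaffold Dlgap4 rose by 0.43 (FDR = 0.00018), whereas the scaffold Dlg2 went from 583, 581 and 589 CPM to 354, 407 and 358 CPM (-0.65 ± 0.06, FDR = 9.2e-05) and the AMPA receptor partner Cnih2 fell by 0.68 (FDR = 0.00038).

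In the perineuronal net and hyaluronan matrix list the link proteins moved in opposite directions. Hapln4 (8:70083457-70090862), a link protein of the nets, was at 65.2, 71.3 and 67.4 CPM at P22 and 183, 170 and 165 CPM in adults, a 2.54-fold rise (log2 fold change 1.35 ± 0.05, FDR = 6.2e-06). Hapln1, another link protein of the nets, was at 52.8, 41.5 and 53.5 CPM and then at 18.1, 22.8 and 21.2 CPM (-1.25 ± 0.11, FDR = 8.1e-05). Acan, the proteoglycan aggrecan, was at 2.56, 3.53 and 4.08 CPM and then at 6.11, 5.31 and 6.99 CPM (0.87 ± 0.18, FDR = 0.0047). Hapln4 and Acan were the 2 of 13 members that rose, 8 fell, among them Tnc, the matrix protein tenascin-C (-1.75, FDR = 0.00073), and Adamts4, an aggrecanase (-1.08, FDR = 0.00014), and the median was -0.52. The ratio of Acan to Hapln1 per kb was 0.0552 ± 0.0151 at P22 and 0.237 ± 0.0461 in adults. P22 WT animals of batch 3 lay between them, at 0.124 to 0.164, and had Hapln1 at 18.3 to 26 CPM, near the adult range.

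**Figure D2:**
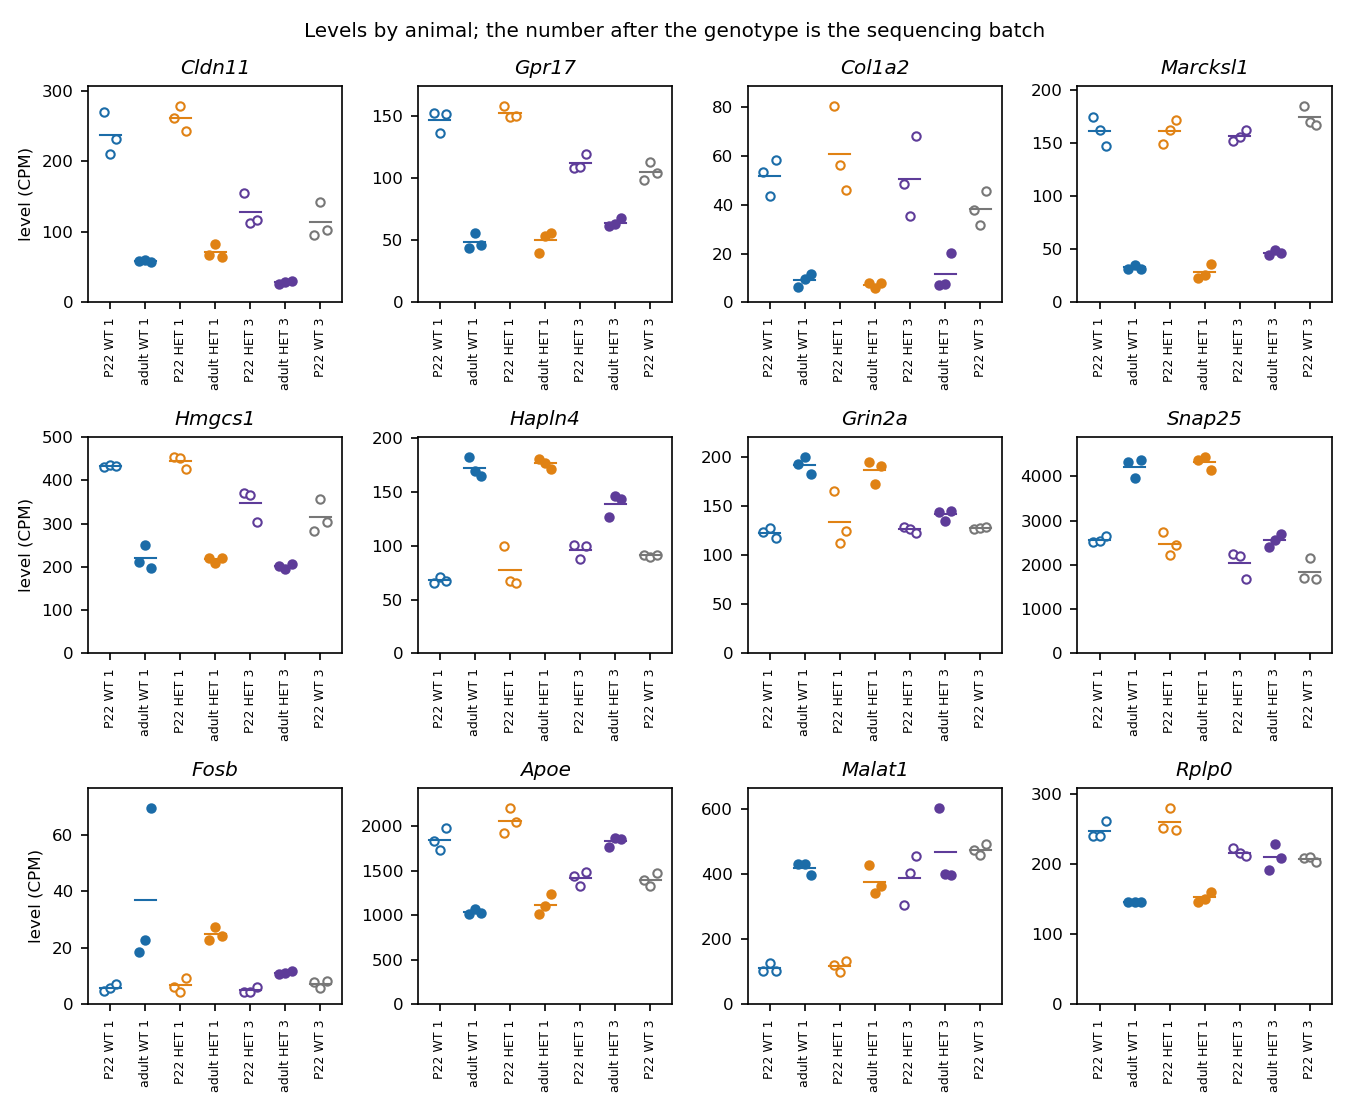
Level of selected genes in CPM, with 1 point for each animal (open, P22; filled, adult) and a line at the group mean, for WT and HET animals of sequencing batches 1 and 3 on linear axes from 0. In batch 1 each adult lies apart from each P22 animal for Cldn11, Marcksl1 and Hapln4 in WT.

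Interneuron genes showed little common movement, 3 higher and 10 lower of 32 (median -0.14). Lamp5, of neurogliaform cells, rose from 206, 242 and 231 CPM to 375, 303 and 409 CPM (0.68 ± 0.11, FDR = 0.0011), and Calb2, the calcium buffer calretinin, went from 15.4, 12.7 and 14.7 CPM to 6.86, 7.08 and 8.69 CPM (-0.92 ± 0.10, FDR = 0.00014). In HET animals of batch 3 Calb2 was instead higher in adults, at 11.75 to 12.9 CPM at P22 and then 13.69 to 15.16 CPM. Pvalb, of fast-spiking cells and named after its values were seen, was at 57.3, 65 and 76.7 CPM and at 76.1, 70.1 and 93.6 CPM, with overlapping groups (0.27, FDR = 0.12). Among 20 neuropeptides and neurotrophins 4 were higher and 10 lower (median -0.16), with 1 higher without P22_WT_445 or adult B76 and 2 without P22_WT_447. Tac1, the precursor of substance P, went from 20, 27.7 and 22 CPM to 9.22, 11 and 6.67 CPM (-1.39, FDR = 6.4e-05), Cort, the somatostatin relative cortistatin, fell by 1.02 on the log2 scale (FDR = 0.00095), and the secreted peptide precursor Vgf rose from 163, 181 and 170 CPM to 264.8, 295.8 and 305.7 CPM (0.75, FDR = 7.6e-05). Penk, the enkephalin precursor, was at 63.8, 102 and 66.1 CPM and then at 36.2, 25.5 and 29.2 CPM (-1.34, FDR = 0.0004), while P22 WT animals of batch 3 had 36.6 to 40.9 CPM.

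Of 12 deep layer genes 8 were lower and 2 higher (median -0.70, or -0.48 without P22_WT_443 or adult B78), and of 11 upper layer genes 5 were higher and 0 lower (median 0.20), although 2 were lower without P22_WT_443 or adult B78. In HET animals of batch 1 the deep layer list had 2 higher and 6 lower (-0.39) and the upper layer list 2 higher and 2 lower (0.04), and in those of batch 3 the upper layer list had 7 higher and 1 lower (0.29). Ccn2, a matricellular protein of layer 6b that blood vessels also express, was at 56.4, 48 and 60.7 CPM and then at 12.3, 8.24 and 13 CPM (-2.31 ± 0.15, FDR = 2.3e-05), and Cplx3, a complexin of the same layer, at 47, 40.9 and 47.2 CPM and then at 12.6, 10.3 and 12.6 CPM (-1.92 ± 0.09, FDR = 9e-06). Pcp4, a calmodulin regulator, fell by 0.82 on the log2 scale (FDR = 6.2e-05). In P22 WT animals of batch 3 Ccn2 was at 20.8 to 27.2 CPM and Cplx3 at 18 to 29.1 CPM. Among upper layer genes, Rasgrf2 was at 117, 123 and 126 CPM and then at 186, 171 and 223 CPM (0.66 ± 0.08, FDR = 0.00034), with rises in the transcription factors Cux2 (0.55, FDR = 0.0015) and Pou3f1 (0.43, FDR = 0.0027).

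Immediate early genes, which neurons switch on within minutes of activity, were uneven between adults. Their summed level was 689, 1051 and 1345 CPM at P22 and 1015, 1552 and 4122 CPM in adults, the highest in B78, and the groups overlapped. Of 22 genes 5 were higher and 1 lower, with a median of 0.60 that turned to -0.28, with 7 lower, without B78 (or without P22_WT_443, the other male, since the sex term then absorbs B78). Without the filter on low counts 10 were higher. Egr3 was higher in each adult, at 276, 331 and 524 CPM against 85.8, 82.3 and 98.3 CPM (log2 fold change 2.03 ± 0.17, FDR = 5.4e-05), as was Fosb, at 18.45, 22.69 and 69.54 CPM against 4.85, 5.76 and 7.37 CPM (2.38 ± 0.39, FDR = 0.0012, and 1.65 without B78 or P22_WT_443). Inhba, an activin subunit, rose from 8.53, 9.43 and 10.8 CPM to 19.4, 27.5 and 21.1 CPM, and Nptx2, a pentraxin that gathers AMPA receptors, by 0.64 on the log2 scale (FDR = 0.0011). In HET animals of batch 3 Nptx2 was at 65.08 to 84.21 CPM at P22 and 62.78 to 68.13 CPM in adults, with overlap. Fos itself, named after its values were seen, did not pass the test (0.16, FDR = 0.87). The cyclic AMP element TGACGTCA was found in 2 of 17 list promoters (11.8%), those of Btg2 and Dusp1, neither of which was called, against 1.77% of all genes.

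Circadian clock genes were higher in adults in 10 cases and lower in 1 of 18 (median 0.34, or 0.18 without P22_WT_443 or adult B78). The activators Arntl, at 27.2, 27.6 and 26.1 CPM and then 45.5, 40.1 and 47.8 CPM (0.72 ± 0.07, FDR = 0.00011), and Npas2, at 34.1, 37.2 and 36.2 CPM and then 55.5, 56.2 and 53.5 CPM (0.62 ± 0.05, FDR = 5.6e-05), rose. So did the repressor Per3, at 26.7, 34.6 and 30.3 CPM and then 44.4, 48.5 and 46.9 CPM (0.62 ± 0.08, FDR = 0.00051). Dbp, an output factor that cycles in antiphase to Arntl, was the 1 that fell, from 67.2, 75.3 and 70.8 CPM to 49.5, 51.2 and 36.7 CPM (-0.65 ± 0.08, FDR = 0.00022). In P22 WT animals of batch 3 Dbp was at 43.92 to 59.36 CPM. In HET animals of batch 3 it was at 54.18 to 66.41 CPM at P22 and 41.37 to 64.16 CPM in adults, with overlap. The labels give no time of day of dissection. E-boxes (CACGTG), to which the activators bind, were found in 5 of 16 list promoters (31.2%) against 6.86% of all genes, and they were those of Bhlhe41, Ciart, Cry1, Per1 and Tef, of which none was called. The D-box TTATGTAA, the element of Dbp and its relatives, was found in 1 of 16 (6.25%) against 0.977% of all genes. It occurs 2 times in the promoter of Per3 (GRCm38.p6 chr4:151044666-151044915, minus strand), shown with both matches in capitals. Per3 was picked because it rose where Dbp fell in WT animals of batch 1. A match is a string of letters and not evidence of binding.
Per3: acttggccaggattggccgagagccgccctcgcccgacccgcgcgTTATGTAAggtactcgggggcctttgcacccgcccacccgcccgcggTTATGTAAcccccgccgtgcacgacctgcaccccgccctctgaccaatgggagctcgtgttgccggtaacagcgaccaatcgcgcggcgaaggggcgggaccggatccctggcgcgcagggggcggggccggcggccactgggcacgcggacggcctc

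Astrocyte and microglia genes were lower in WT adults of batch 1 with almost no exception. Of 27 astrocyte genes 25 were lower and 0 higher (median -0.50), and the summed level was 15914 to 18760 CPM at P22 and 11372 to 11726 CPM in adults. Gfap, the intermediate filament of astrocytes, was at 264, 227 and 299 CPM and then at 58, 92.1 and 58.3 CPM (-1.93 ± 0.17, FDR = 7.3e-05), and Aqp4, the water channel of their endfeet, at 148, 166 and 182 CPM and then at 64.1, 84.7 and 69.6 CPM (-1.18 ± 0.10, FDR = 5.3e-05). Apoe, the main lipid carrier of the brain, fell from 1835, 1735 and 1986 CPM to 1014, 1068 and 1031 CPM (-0.84 ± 0.06, FDR = 3.5e-05). Of 22 microglia genes 21 were lower and 0 higher (median -0.58), with all 22 apart between groups. P2ry12, the nucleotide receptor of surveying microglia, was at 55.9, 56 and 59.5 CPM and then at 24.6, 29.5 and 23 CPM, and Fcrls at 52.1, 48.4 and 53.4 CPM and then at 24.5, 24.5 and 21.5 CPM. In P22 WT animals of batch 3 the astrocyte list summed to 12532 to 13193 CPM, with 20 of 27 members called lower than in batch 1 and Gfap at 121 to 146 CPM. There the microglia list summed to 874 to 937 CPM, against 1009 to 1093 CPM at P22 and 634 to 723 CPM in adults of batch 1. HET animals of batch 3 differed in this from batch 1, as given with those animals. Of 20 complement, MHC class I and interferon genes 8 were lower and 2 higher (median -0.49), and without P22_WT_447 there were 5 lower and the median was -0.18. Without adult B58, 5 were also lower. C4b, a complement component, was at 16.6, 13.3 and 20.3 CPM and then at 5.03, 7.51 and 7.57 CPM, and H2-T23, a non-classical MHC gene, rose from 12.8, 12.1 and 15.4 CPM to 25.7, 23.5 and 29.5 CPM.

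In WT animals endothelial genes were mixed and matrix genes fell. Among 21 endothelial genes 6 were higher and 7 lower (median -0.05). Flt1, a VEGF receptor, rose from 25, 29.8 and 26.2 CPM to 43.5, 50.4 and 45.9 CPM (0.79 ± 0.08, FDR = 0.00012), whereas Itm2a (-0.76, FDR = 0.00016) and Vwf, the clotting factor carrier (-1.01, FDR = 0.00026), were lower. Of 12 mural cell genes 1 was higher and 3 lower (median -0.35), and 7 were lower without P22_WT_443 or adult B78 and 6 without the filter on low counts. In HET animals the endothelial list had 1 higher and 14 lower in batch 1 (median -0.46) and 2 higher and 7 lower in batch 3 (-0.33), and the mural list 0 higher and 9 lower (-0.57) and 0 higher and 5 lower (-0.49). Anpep, an aminopeptidase of pericytes and fibroblasts, went from 8.61, 6.02 and 9.4 CPM to 2.04, 1.95 and 3.28 CPM. Of 27 collagen and basement membrane genes 18 were lower and 6 higher (median -0.80). Sparc, a collagen-binding protein of endothelium and astrocytes, fell from 577, 541 and 619 CPM to 167, 170 and 178 CPM (-1.75 ± 0.06, FDR = 6.2e-06), Col1a2 from 53.3, 43.5 and 58.3 CPM to 6.53, 9.8 and 11.6 CPM (-2.49 ± 0.17, FDR = 2.7e-05), and Serpinh1, the collagen chaperone, from 46.4, 43.5 and 45.8 CPM to 11.4, 15 and 14.9 CPM.

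Markers of tissue next to the cortex were lower in adults. All 12 fibroblast and meninges genes fell (median -2.35), and their summed level was 198, 149 and 216 CPM at P22 and 30.4, 40 and 72.2 CPM in adults. Dcn, the proteoglycan decorin, was at 26.7, 19.3 and 29.5 CPM and then at 2.54, 4.45 and 8.18 CPM. Of 8 tested choroid plexus genes (10 listed) 5 were lower and 0 higher (median -1.88, or -1.21 without P22_WT_447). Ttr, the transthyretin that choroid epithelium secretes and named after its values were seen, was at 2.76 and 0.911 CPM in P22_WT_443 and P22_WT_445 and 107 CPM in P22_WT_447, with 0.334, 0.363 and 2.21 CPM in adults, so that its fall rested on 1 animal and did not pass the test (FDR = 0.056). All 5 erythroid genes were lower, from a sum of 116 to 125 CPM to 29.1 to 46.3 CPM, with Hbb-bs, an adult haemoglobin, at 66.7, 68.9 and 75 CPM and then 14.9, 22 and 24.9 CPM. Haemoglobin genes are near-identical copies, so reads may be split among them.

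Of 13 striatum genes 10 were lower and 0 higher (median -1.05, between -1.34 and -0.77 without 1 animal), and their sum was 386, 491 and 372 CPM at P22 and 280, 273 and 286 CPM in adults. Six3, a transcription factor of striatal neurons, was at 1.99, 3.86 and 2.99 CPM at P22 and at 0.0209, 0.0227 and 0.0243 CPM in adults, about 1 read for each adult, and at 0 to 0.0309 CPM in P22 WT animals of batch 3. Isl1, named after its values were seen, was at 0.203, 0.863 and 0.848 CPM at P22 and at 0 in all adults. Drd2, the indirect pathway dopamine receptor, was at 6.15, 9.02 and 4.31 CPM and then at 0.98, 1.13 and 1.07 CPM, and Drd1, which the cortex also expresses, at 16.5, 20.8 and 18 CPM and then at 6.28, 7.58 and 6.55 CPM. In P22 WT animals of batch 3 the list summed to 272 to 291 CPM, inside or near the adult range. Of 5 tested thalamus genes (6 listed) 4 were lower and 0 higher (median -1.04, sum 57.6 to 62.7 CPM against 31.3 to 31.6 CPM), of which Zic1, at 15.5, 12.7 and 16.2 CPM and then 4.15, 5.1 and 5.41 CPM, and Zic4 are also genes of the meninges. Of 3 tested olfactory bulb genes (5 listed) 2 were lower and 0 higher (median -1.77, or -1.05 without P22_WT_443 or adult B78), with Cdhr1, a cadherin of mitral cells, at 8.43, 5.49 and 10.6 CPM and then 1.96, 2.54 and 2.09 CPM. The defining markers Otx2 of choroid plexus, Gbx2 of thalamus and Tbx21 and Eomes of olfactory bulb were too low to be tested. The part of neighbouring tissue in the falls of Nts, Penk, Tac1, Th, collagens, oligodendrocyte genes and other genes that those tissues also express was not tested.

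Of 80 tested cytosolic ribosomal protein genes (83 listed) 75 were lower and 0 higher (median -0.45), and their sum was 14476 to 16054 CPM at P22 and 10837 to 11374 CPM in adults. P22 WT animals of batch 3 had a sum of 11738 to 12103 CPM, near the adults, with 68 of 80 members called lower than in P22 WT animals of batch 1. Rps2 was at 345, 337 and 363 CPM and then at 170, 188 and 175 CPM (-0.97 ± 0.06, FDR = 1.6e-05), and Rplp0 at 241, 240 and 262 CPM and then at 147 CPM in each adult. Pseudogene copies could share reads with ribosomal protein genes. Of 94 tested genes of oxidative phosphorylation (104 listed) 72 were lower and 2 higher (median -0.40), and the 2 rises were lost without P22_WT_443 or P22_WT_445 or adult B58 or B78. The list summed to 13776 to 14911 CPM at P22, 10715 to 10884 CPM in adults and 12096 to 12559 CPM in P22 WT animals of batch 3. Uqcr11, a subunit of complex III, went from 193, 193 and 210 CPM to 110, 106 and 101 CPM. Of the 13 genes encoded in mitochondrial DNA, 2 were lower and 0 higher (median -0.02), and without adult B58 none was called. Their sum was still lower in each adult, at 53085 to 55695 CPM at P22 and 43935 to 52874 CPM in adults. In HET animals of batch 1 the median was -0.32, with 0 called. P22 WT animals of batch 3 had a sum of 29904 to 42597 CPM. Of 33 cell cycle genes 15 were lower and 1 higher in WT adults of batch 1 (median -0.59). That is 45.5% lower and 3.03% higher, against 24.4% and 24.1% of all genes. Top2a, which dividing cells use to untangle DNA, was at 2.96, 3.09 and 2.36 CPM and then at 0.292, 0.476 and 0.218 CPM (-3.08 ± 0.28, FDR = 7.1e-05), and Mki67, the proliferation marker, at 2.05, 1.99 and 1.91 CPM and then at 0.396, 0.544 and 0.412 CPM. In HET animals of batch 3 the cell cycle list had 2 higher and 2 lower of 32 (median -0.16).

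Of 752 long intergenic non-coding RNAs tested, 189 (25.1%) were higher and 96 (12.8%) lower (median 0.14), against 24.1% and 24.4% of all genes. Malat1 (19:5795690-5802672), a nuclear RNA named after its values were seen, was at 102, 126 and 104 CPM at P22 and 431, 431 and 398 CPM in adults, a 3.81-fold rise (log2 fold change 1.93 ± 0.07, FDR = 6.2e-06). Meg3, a maternally expressed imprinted RNA, was at 828, 1041 and 799 CPM and then at 3180, 3551 and 3507 CPM (1.94 ± 0.10, FDR = 1.1e-05). Miat, at 146, 190 and 143 CPM and then 514, 565 and 544 CPM, and Snhg11, at 511, 627 and 513 CPM and then 1729, 1891 and 1976 CPM, both named after their values were seen, moved alike. In P22 WT animals of batch 3 Malat1 was already at 458 to 494 CPM, Meg3 at 2067 to 2538 CPM, Miat at 396 to 485 CPM and Snhg11 at 984 to 1111 CPM. Long intergenic RNAs took 0.62% to 0.751% of reads at P22, 0.964% to 1.05% in adults and 0.813% to 0.93% at P22 in batch 3. In WT animals of batch 1 the direction of change also went with exon length. Among the 3818 protein-coding genes with the shortest exon sequence (up to 2766 bases) 11.6% were higher and 38.3% lower (median -0.18), and among the 3816 with the longest (from 6779 bases) 37.2% were higher and 20.2% lower (median 0.09). Over 4 groups by exon length the medians ran from -0.13 to 0.05 in HET animals of batch 1, but in HET animals of batch 3 they lay between -0.04 and 0.00 with no such order. Ribosomal protein genes and many genes of oxidative phosphorylation are short, and the part of length in their falls was not tested. Nor was the part of length tested in the rises of genes with long exon sequence.

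Of 29 tested imprinted genes (30 listed) 11 were lower and 6 higher (median -0.13), and 7 were lower without P22_WT_447. Nnat, a paternally expressed proteolipid, was at 196, 127 and 150 CPM and then at 28, 32.9 and 31.9 CPM (-2.33 ± 0.11, FDR = 8.8e-06), and Peg3, a zinc finger gene, rose by 0.55 on the log2 scale (FDR = 9.8e-05). Among 13 genes of DNA methylation and methyl-CpG binding 4 were higher and 3 lower (median -0.07). Dnmt3a, which writes methylation in maturing neurons, was at 139, 141 and 143 CPM and then at 76.2, 87.5 and 98.3 CPM (-0.69 ± 0.08, FDR = 0.00017), and the oxidases of methylated cytosine moved apart, Tet1 from 19.2, 17.9 and 17.3 CPM to 8.15, 9.17 and 8.01 CPM and Tet2 from 19.9, 23.5 and 22.9 CPM to 34.1, 38.1 and 48.7 CPM.

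The MYT1 family, to which the mutated gene of the series belongs, changed little. Myt1l was at 204, 196 and 177 CPM at P22 and 235, 239 and 215 CPM in adult WT animals, without overlap (log2 fold change 0.26 ± 0.07, FDR = 0.015), a call lost without P22_WT_445 or P22_WT_447 or adult B58 or B76 (FDR = 0.052 to 0.055). Myt1 was at 7.72, 7.67 and 7.42 CPM and then at 6.24, 6.67 and 6.48 CPM, without overlap but short of the threshold (-0.23 ± 0.10, FDR = 0.073). St18 was at 4.41, 3.38 and 3.42 CPM and then at 2.77, 2.86 and 2.86 CPM (-0.39 ± 0.14, FDR = 0.042), which was lost in 8 of 12 alternatives, each removal of an animal among them. The list thus had 1 member higher and 1 lower of 3 (median -0.23).

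The same age contrast was then taken in HET animals, which share no animal with the WT comparison. In batch 1, 3900 genes (20.5%) were higher and 4192 (22%) lower of 19050 tested, 42.5% in all. Of 4497 genes higher in WT adults and tested in both, 98.4% had the same sign in HET and 3297 (73.3%, or 85.2% of the HET list) were also called higher. Of 4573 genes lower in WT adults, 99.5% had the same sign and 3437 (75.2%, or 83% of the HET list) were also called lower. Only 1 gene was called in opposite directions. The age by genotype term called 0 of 19534 genes with edgeR (880 at an unadjusted p under 0.05) and 1 with DESeq2 (641 at an unadjusted p under 0.05). Its 5 smallest p-values belonged to Piezo1, Mustn1, Foxf2, Atp2a3 and Srcap (all FDR = 0.95). Piezo1, a mechanically gated channel, rose by 0.34 in WT (FDR = 0.041) and fell by 0.53 in HET (FDR = 0.0034).

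In batch 3, adult HET animals differed from P22 HET animals in 4721 of 18269 genes (25.8%), with 2294 (12.6%) higher and 2427 (13.3%) lower. Of 4421 genes higher in WT adults, 76.2% had the same sign there, 1247 (28.2%, or 54.5% of the batch 3 list) were also called higher and 95 were called lower. Of 4478 genes lower in WT adults, 74.3% had the same sign, 1512 (33.8%, or 62.5% of the batch 3 list) were also called lower and 264 were called higher. In all 3 age comparisons 1056 genes were higher and 1313 lower, of 18020 tested in each.

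The gene lists fell into those that repeated across batches and those that did not. Myelin genes were lower in 26 of 33 cases and higher in 0 in batch 3 HET (median -1.04), newly formed oligodendrocyte genes in 8 of 12 (-0.68), precursor genes in 6 of 10 (-0.41), cholesterol genes in 19 of 25 (-0.45), immature neuron genes in 13 of 18 (-0.41), deep layer genes in 9 of 12 (-1.16), collagen genes in 19 of 27 (-1.02) and meningeal genes in 12 of 12 (-2.18), and clock genes were higher in 10 of 18 (0.33). Cldn11 was at 112 to 155 CPM in P22 and 26 to 30.6 CPM in adult HET animals of batch 3, Marcksl1 at 152 to 162 and 45 to 48.9 CPM, and Hapln4 at 87.4 to 101 and 127 to 146 CPM. By contrast, 12 astrocyte genes were higher and 6 lower (median 0.16), 7 microglia genes higher and 3 lower (0.02), 8 genes of oxidative phosphorylation higher and 11 lower of 90 (-0.02), and 55 ribosomal protein genes higher and 0 lower of 79 (0.35). Apoe was at 1329 to 1483 CPM in P22 and 1767 to 1870 CPM in adult HET animals of batch 3 (0.34, FDR = 0.0033), opposite to its fall in batch 1, and Malat1 at 306.2 to 456.9 and 399.2 to 605.4 CPM (FDR = 0.26). Channel genes rose in 16 of 46 cases and fell in 3 (median 0.08), presynaptic genes rose in 4 and fell in 6 (-0.16), and immediate early genes rose in 8 of 22 and fell in 2 (0.30) against a median of -0.23 in batch 1 HET. In the other batch Grin2a over Grin2b per kb was 0.495 to 0.616 at P22 and 0.511 to 0.553 in adult HET, with overlap, whereas Slc12a5 over Slc12a2 was 20.2 to 28.7 and then 51.5 to 53.

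**Figure D3:**
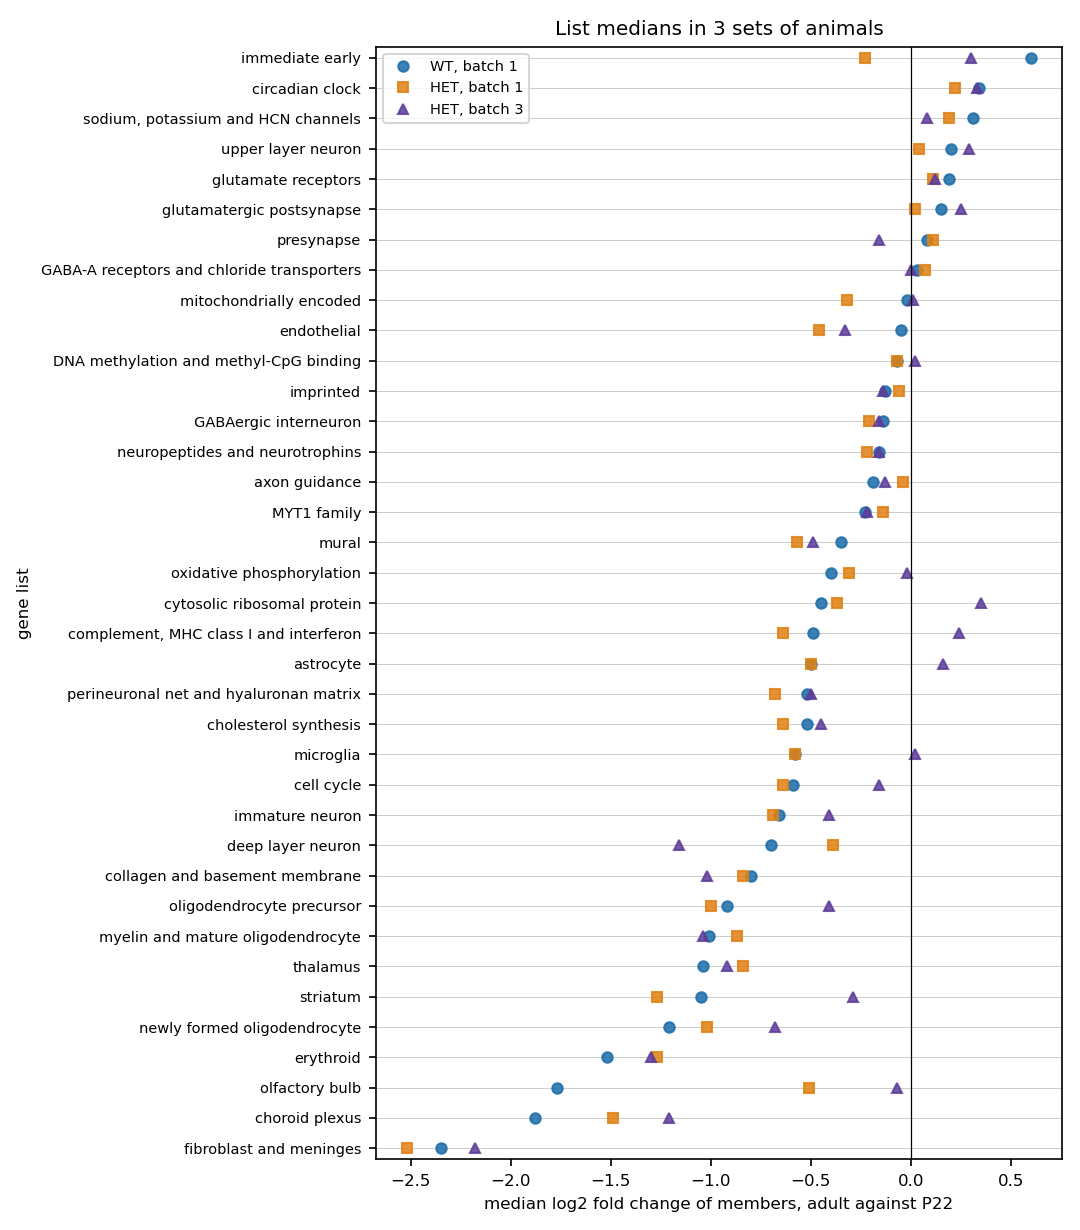
Median log2 fold change of each gene list's tested members, adult against P22, in WT animals of batch 1 (circles), HET animals of batch 1 (squares) and HET animals of batch 3 (triangles). Squares follow circles for most lists, and triangles part from them for the ribosomal (0.35 against -0.45), astrocyte (0.16 against -0.50) and microglia (0.02 against -0.58) lists.

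**Figure D4:**
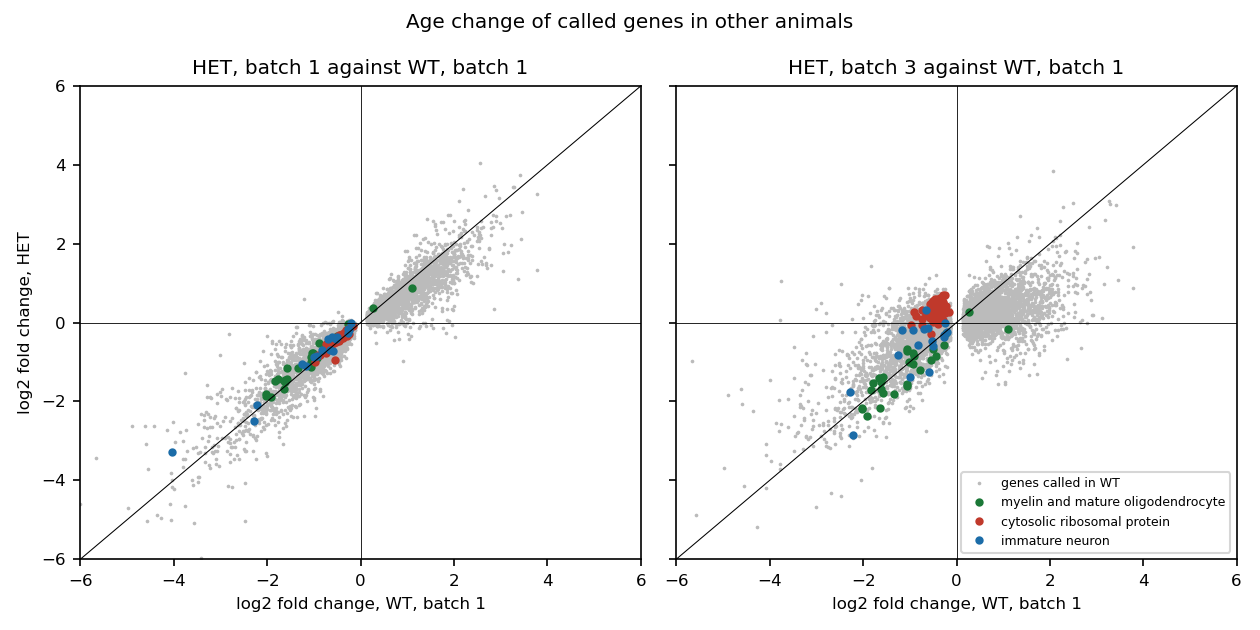
Log2 fold change, adult against P22, of the genes called in WT batch 1 (x axis), against the same contrast in HET animals of batch 1 (left) and batch 3 (right), 1 grey point for each gene, with members of selected lists in colour. The axes end at 6 in either direction and leave out 11 of 9070 genes on the left and 1 of 8899 on the right. Points on the left lie along 1 line and those on the right scatter, with ribosomal genes above 0 and myelin genes below 0.

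An age by batch term among the 12 HET animals, added after these data were seen, called 2610 of 19498 genes (13.4%), 1440 (7.39%) with a larger and 1170 (6%) with a smaller log2 fold change in batch 3. It called 76 of 80 ribosomal, 22 of 27 astrocyte, 17 of 22 microglia and 39 of 95 oxidative phosphorylation members. This count rested partly on single animals, and was 824 without adult B70 and 1625 without adult B57. Whether libraries sequenced in 1 batch had also been made together is not given in the labels.

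To set the change after P22 beside the one before it, P22 and P0 WT animals of batch 3 were compared, so that the change before P22 comes from batch 3 and the one after it from batch 1. There 13533 of 19485 genes were called (69.5%), 6947 (35.7%) higher and 6586 (33.8%) lower at P22. Of 4448 genes higher in adults than at P22, 1750 (39.3%) had risen and 1518 (34.1%) had fallen from P0 to P22, and of 4532 genes lower in adults, 1403 (31%) had fallen and 2003 (44.2%) had risen. Myelin genes rose before P22, with a median of 4.35, and were lower after it (-1.01). Cldn11 had risen by 8.99 on the log2 scale (FDR = 2.1e-10). Astrocyte (3.56), microglia (3.53), meningeal (5.17) and newly formed oligodendrocyte (1.73) lists also had positive medians before P22 and negative ones after. Immature neuron (-3.11 and -0.66), ribosomal (-1.31 and -0.45) and cell cycle (-2.76 and -0.59) lists had negative medians on both sides, and channel (1.74 and 0.31), clock (1.92 and 0.34), presynaptic (2.06 and 0.08) and postsynaptic (0.93 and 0.15) lists positive ones on both. In HET animals of batch 3 the medians after P22 were instead 0.16 for astrocyte, 0.02 for microglia, 0.35 for ribosomal and -0.16 for presynaptic genes. Hapln4 had risen by 6.71 before P22 (FDR = 7.7e-11) and Marcksl1 had fallen by 3.10 (FDR = 9.1e-10).

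**Figure D5:**
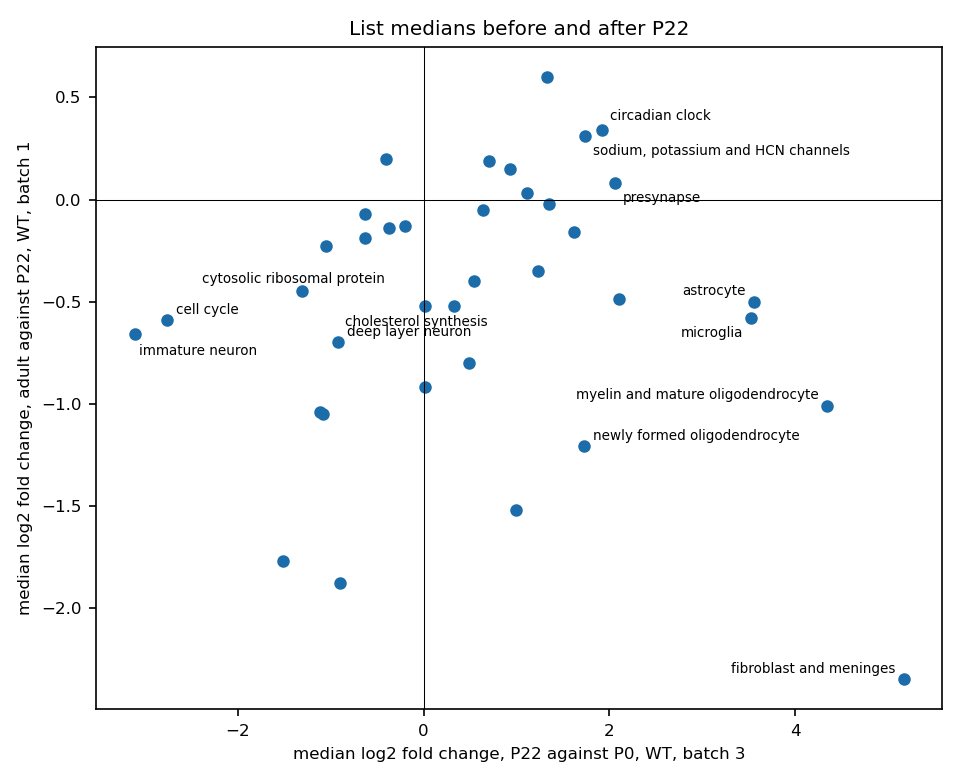
Median log2 fold change of each gene list from P0 to P22 (x axis, WT, batch 3) and from P22 to adult (y axis, WT, batch 1), 1 point for each list. Myelin, astrocyte, microglia and meningeal lists lie at the lower right (a positive median before P22 and a negative one after it), and the immature neuron and cell cycle lists at the lower left. After P22 the medians of the astrocyte and microglia lists were 0.16 and 0.02 in HET animals of batch 3, which are not plotted.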

How the data were processed

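Total RNA of dissected prefrontal cortex was extracted with TRIzol and a column kit, and sequenced as paired-end, strand-marking (dUTP) libraries. Per the labels, reads were aligned with STAR to mm10. The deposited table, made by the authors, holds whole-number raw counts of reads for 55483 genes in 100 libraries. How reads were counted, on which strand and with which gene models is not given in the sources used here, so a gene and its antisense partner may not be separable, and 55137 gene IDs matched GENCODE M21. The authors' DESeq2 comparison table and normalised values were not used.

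Here the libraries of an animal were summed. Genes were kept by filterByExpr and tested with edgeR 4.0.16 (R 4.3.3; TMM, quasi-likelihood F test, sex as covariate, Benjamini-Hochberg FDR under 0.05 over all genes tested), and by DESeq2 1.42.0 as an alternative. Only the 6 animals compared entered the fit. P-values measure the spread between animals. Levels are CPM after TMM scaling over P22 and adult animals, divided by exon length where genes are compared. Intervals of counts would cover counting error only. The fits were tested on simulated counts in which only a small share of genes changed. Their behaviour with as large a share changed as was called here was not tested.

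Members and the 37 gene lists were chosen with earlier results of these data known. Each list is described by its members called and their median, without a set test. Genes are named by rule (10 largest rises and 10 largest falls called, with mean log2 CPM of at least 1 and no overlap, without predicted genes, pseudogenes and sex-specific genes; in each list the called members with the 4 smallest p-values; the MYT1 family; 5 subunit pairs; the 5 smallest p-values of the interaction), and others are marked as named after their values were seen. Some genes that meet the rule are not reported here. The comparisons between batches and the age by batch term were chosen after seeing the data. Promoters are from RefSeq (GRCm38.p6), 250 bases before the start, with motifs searched on both strands. Python 3.11.15, numpy 2.4.6, pandas 2.3.3 and matplotlib 3.10.9 were used.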

Additional observations from a re-analysis of the deposited data

Results flagged for a closer look

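The difference between adult and P22 animals was not the same in the HET animals of the 2 sequencing batches. By the age by batch term, a test added after the data were seen, 2610 of 19498 genes (13.4%) differed between batches in their age change, 824 without adult B70 and 1625 without adult B57. Among the lists, 76 of 80 cytosolic ribosomal protein genes, 22 of 27 astrocyte genes, 17 of 22 microglia genes and 39 of 95 genes of oxidative phosphorylation were called by that term. WT adults were sequenced in batch 1 alone among the animals analysed here, so the same test could not be made in WT animals. P22 WT animals of batch 3 differed from those of batch 1 in 7944 of 18426 genes, and adult HET animals of batch 3 from those of batch 1 in 5955 of 18411 genes, both comparisons chosen after seeing the data.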

How the results depend on the processing

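The count of genes called in WT, 4558 higher and 4612 lower, was 4050 and 4284 with DESeq2, 4551 and 4598 with RLE scaling, 4845 and 4597 without the filter on low counts, 4692 and 4741 without the sex covariate, 4966 and 5020 in a fit of 12 animals, and 4835 and 4854 with 9 WT animals and a batch term. The fit of 9 WT animals had no WT adult of batch 3, so its age difference still rested on batch 1. It could not check that difference against batch. The WT count was 7579 to 7889 in all without 1 animal. Leaving out 1 animal gave 3273 to 8193 genes in batch 1 HET (3273 without adult B70, 5225 without P22_HET_442), 2241 to 4780 in batch 3 HET (2241 without adult_HET_1492, 3106 without P22_HET_688), 11313 to 13701 between P0 and P22 (13685 and 13701 with 1 P0 animal left, assumed to vary like the P22 group), 824 to 2787 for the age by batch term and 0 to 0 for the age by genotype term, which DESeq2 put at 1 gene. Of 169 named genes, 161 kept their direction and side of the threshold in all 12 alternatives. Those that did not included Myt1l, St18, Grin2b, Piezo1, mt-Cytb, mt-Co1 and Scn3a, whose log2 fold change of -0.04 was 0.06 without P22_WT_443 or without adult B78 and -0.13 to 0.06 over all removals of 1 animal. Most named genes were chosen by their calls in the same WT animals, which the alternatives use again, in whole or less 1 animal. The count of 161 therefore follows partly from that choice and does not test these genes in other animals. Of 37 list medians, 15 stayed within the spread between animals in all alternatives. Without P22_WT_443 or adult B78, the males, the sex term absorbs the other male, and the removals called 7806 and 7819 genes. No paired analysis was possible because the number after rep names the 2 libraries of 1 animal, which were summed, and no label links a P22 animal to an adult. The depth of 41.9 to 49.8 Mreads leaves genes near 1 read for each animal, such as Six3 in adults, without a usable fold change.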
